A study of Mus musculus with 19 samples.

Results

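The interaction of diet and genotype asks of every gene whether the change between control and KO-labelled livers was the same on both diets. It was measured in all 19 liver libraries as the difference between KO-labelled and control livers on the HF diet less the same difference on the LF diet, on the log2 scale, in 1 fit of the read counts, for 14391 of the 24192 genes in the deposited tables. The libraries were whole livers of adult mice, 1 per mouse. Control mice on a low fat diet (LF-C, n = 4) and KO-labelled mice on the same diet (LF-KO, n = 4) stood against control mice (HF-C, n = 5) and KO-labelled mice (HF-KO, n = 6) on a diet of fat, cholesterol and fructose, fed to induce steatohepatitis. Per the labels, PPARγ was deleted in hepatocytes before 24 weeks of that diet, so the other cells of the liver keep the gene. The labels used here name no strain, sex, age in weeks, agent of the deletion or deleted exon. A value above 0 means that the KO-labelled livers stood higher against their controls on the HF diet than on the LF diet, and a value below 0 the opposite.

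PPARγ is a nuclear receptor that binds DNA as a dimer with RXR and switches on genes of fat uptake, storage and lipid droplet coating. It is best known as the master regulator of fat cells, and in mouse hepatocytes it is low in the lean state and rises in steatosis. Lipid droplets are stores of triglyceride within the cell, coated with perilipins and enlarged by CIDE proteins, which drive the transfer of lipid between touching droplets. The cytochromes of the Cyp2c family are gene products of the mature mouse hepatocyte. So are the anion transporter Slco1a1, the steroid enzyme Hsd3b5 and the major urinary proteins, which are mostly male-biased.

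The smallest library, LF-C-1, held 11437875 counts and the largest, LF-C-2, 20711869. Pparg, the targeted gene (ENSMUSG00000000440, chromosome 6, 115361221 to 115490401), stood at 27.5, 25.6, 20.6, 31.4 and 21.6 CPM in HF-C (counts per 1000000, scaled by TMM) and from 47.1 to 107 CPM with a median of 56.3 in HF-KO. On the LF diet it stood at 18.97, 8.07, 5.92 and 12.6 CPM in LF-C and 35.3, 41.1, 12.5 and 11.6 in LF-KO. Its mean was thus higher, not lower, in the KO-labelled livers, without overlap on the HF diet. On the LF diet the groups overlapped, as LF-KO-3 and LF-KO-4 lay within the LF-C range. Gene counts cannot show which exons were read, so genotypes are written as labelled and each direction rests on the labels. The KO effect on Pparg was log2 1.43 ± 0.34 on the HF diet (edgeR adjusted p = 0.0223) and 1.15 ± 0.40 on the LF diet (0.328, not past the threshold). The interaction was 0.28 ± 0.52 (adjusted p = 0.856). LF-C-2 stood apart: its TMM factor was 0.611, its mean correlation with its own group was 0.899 against at least 0.94 in every other library, and short genes were high in it (rank correlation of its deviations with gene length -0.468). LF-C-2 also held 50 reads of Adipoq, 61 of Retn, 19 of Plin1 and 5 of Lep, secreted or droplet proteins that define fat cells, where each other library held at most 2 reads of each. In every HF-C library, the group that most of the calls turn on, each of the 4 markers had at most 1 read. The hepatocyte marker Alb, serum albumin, averaged 32219.7 CPM in HF-C and 42249 in HF-KO, against 77229.6 in LF-C and 67678 in LF-KO.

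**Figure D1:**
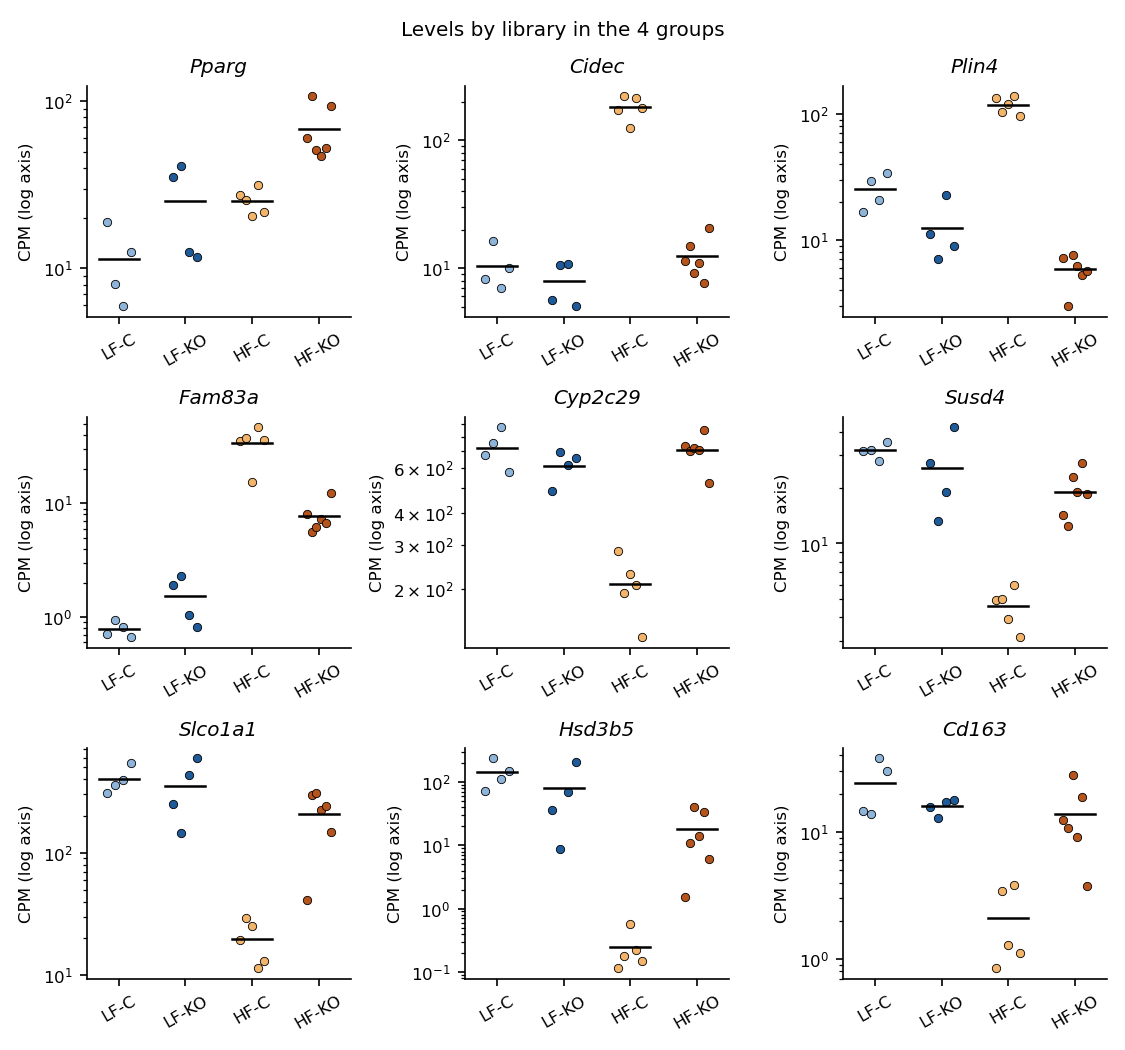
Level of Pparg and 8 called genes in each of the 19 libraries, as TMM-scaled CPM on a log axis; points are libraries and bars are group means. The HF-C libraries sit apart from the HF-KO libraries in each panel but that of Cd163, and from all 14 others in each panel but those of Cd163 and Pparg.

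In 29 genes the KO effect differed between the diets in edgeR's quasi-likelihood test (adjusted p under 0.05), 18 with a higher value (0.125% of the genes tested) and 11 with a lower one (0.0764%), 0.202% in all. With the gene length trend removed the split was 54 higher to 18 lower. All 29 are protein-coding. Unadjusted p-values under 0.05 numbered 1118 for higher and 738 for lower values, where about 720 over both signs are expected by chance. The median interaction over all genes was close to 0, with quartiles of -0.32 and 0.37, and the median SE was 0.37, so a typical gene's value was no larger than its error. For comparison, the KO effect called 531 genes on the HF diet (3.69%) and 1 on the LF diet (0.00695%). In the same fit the diet effect called 3795 genes in control livers (26.4%) and 526 in KO-labelled livers (3.66%).

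The called genes shared a form: HF-C was the group that stood away. Of the 11 genes with a lower value, HF-C had the highest mean in all 11, and in 10 each HF-C library lay above each of the other 14 libraries, which held for 2.86% of all genes; Cpe was the exception. Of the 18 with a higher value, HF-C had the lowest mean in 17, and in 16 each HF-C library lay below each other library, against 1.42% of all genes; Ccl24 and Cd163 were the exceptions. The call and these counts come from the same libraries, so the counts describe the calls and do not support them. The diet effect was smaller in KO-labelled than in control livers in 27 of the 29 genes. Over all genes it was smaller too, with an SD of 0.53 against 0.89. Of the 29, 27 also passed in the KO effect on the HF diet, beside 3.69% of all genes. In the KO effect on the LF diet 0 passed, beside 0.00695%. These counts, too, use the libraries that gave the calls and only describe them.

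**Figure D2:**
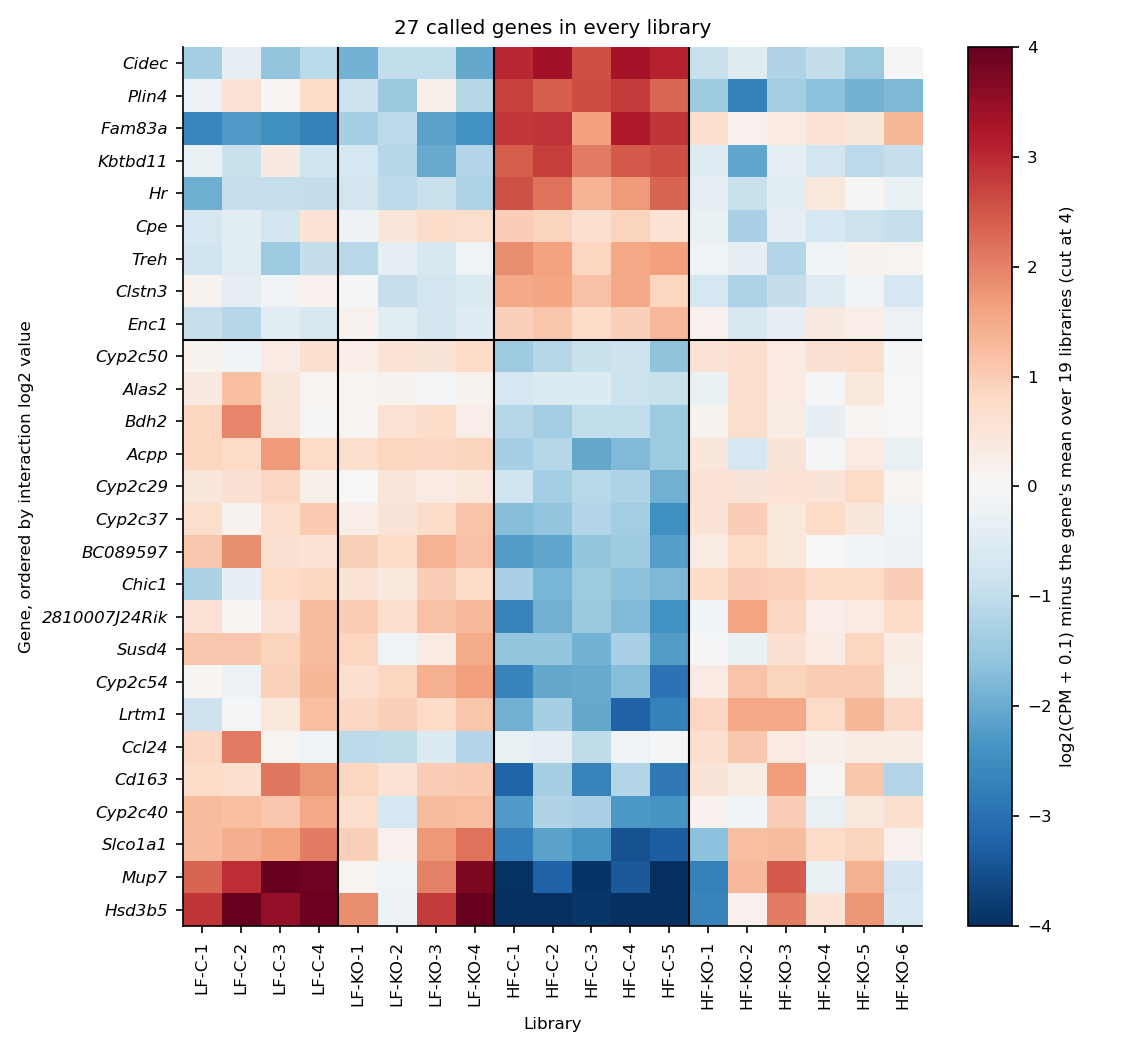
Log2(CPM + 0.1) of 27 of the 29 called genes in the 19 libraries, each gene relative to its own mean, genes ordered by interaction value and groups split by vertical lines. The block of 5 HF-C libraries is high for the 9 genes above the horizontal line and low for most of the 18 below it. The range of HF-KO overlaps that of LF-KO for all genes shown but Fam83a, Cpe, Acpp and Ccl24.

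The smallest p-values were those of genes that coat and enlarge lipid droplets. Cidec, which drives the growth of droplets by lipid transfer (ENSMUSG00000030278, chromosome 6, 113424634 to 113435760), stood at 8.26, 16.4, 6.95 and 9.99 CPM in the LF-C libraries and at 5.62, 10.6, 10.7 and 5.02 in LF-KO. On the HF diet it stood at 172, 219.9, 126, 212 and 178 CPM in HF-C and from 7.61 to 20.4 CPM with a median of 11.2 in HF-KO. The 5 HF-C livers were thus far above all others, and the other 3 groups overlapped. Its diet effect was log2 4.13 ± 0.35 in control livers and 0.64 ± 0.30 in KO-labelled livers, and the interaction was -3.49 ± 0.43 (adjusted p = 0.000765), or -3.75 without LF-C-2.

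Plin4, a perilipin that coats small droplets (ENSMUSG00000002831, chromosome 17, 56100591 to 56109803), stood at 16.5, 29.3, 20.6 and 34.2 CPM in LF-C and 11.05, 7.03, 22.7 and 8.92 in LF-KO. It stood at 133, 103, 119.7, 137 and 96.2 CPM in HF-C and from 2.96 to 7.64 CPM with a median of 5.92 in HF-KO. Here the HF diet moved the genotypes in opposite directions, up in control livers (log2 2.22 ± 0.31) and down in KO-labelled livers (-1.09 ± 0.29, adjusted p = 0.0388). HF-KO lay below every LF-C library, and HF-KO-1 and HF-KO-3 lay just above LF-KO-2, the lowest LF-KO library. The interaction was -3.31 ± 0.42 (adjusted p = 0.000765). Plin4 overlaps Hdgfrp2 on the other strand, and the libraries carry no strand, so reads of the 2 genes cannot be told apart where they overlap. Its neighbour Plin5, a perilipin of oxidative tissues, had an interaction of -0.50 ± 0.39 (adjusted p = 0.616).

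Of 26 genes listed for PPARγ-linked lipid storage, 23 were tested. Cidec and Plin4 were called, both lower, beside 0.0764% of all genes. Counting these, 7 had an unadjusted p under 0.05 and a lower value, beside 5.13% of all genes. A higher value at such a p was seen in 1, beside 7.77% of all genes. The list's median was -0.40, against about 0 for all genes, and -0.72 without LF-C-2. Cidea, Aqp7 and Plin2 also had their highest mean in HF-C, but did not pass. Cidea, of the same protein family, averaged 34.4 CPM in HF-C and 0.137 in HF-KO, against 0.463 in LF-C and 0.143 in LF-KO, an interaction of -6.29 ± 1.53 (adjusted p = 0.0928). Its LF-C mean rests on LF-C-2, at 1.58 CPM beside at most 0.204 in the other 3. Cidea was called at -8.70 without LF-C-2 (adjusted p = 0.00797), its only call in the 19 fits with 1 library left out. Without LF-KO-2 it had -5.66 (adjusted p = 0.427). It was called in 7 of the 12 alternatives of other kinds. Aqp7, a channel for glycerol, averaged 5.70 CPM in HF-C and 0.621 in HF-KO, against 0.0762 in LF-C and 0.0812 in LF-KO (interaction -3.30 ± 0.96, adjusted p = 0.16). All 6 HF-KO libraries lay above all 8 LF libraries for Aqp7, and its diet effect in KO-labelled livers was 2.78 ± 0.53 (adjusted p = 0.00681). Plin2, the general droplet coat of hepatocytes, averaged 987 CPM in HF-C and 568 in HF-KO, against 597 in LF-C and 602 in LF-KO, and its interaction was -0.81 ± 0.24 (adjusted p = 0.174).

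Other members spread widely. Lpl, which frees fatty acids from lipoproteins, had an interaction of -1.38 ± 0.51, Pdk4, a brake on glucose oxidation, of -1.97 ± 0.56, and Mogat1, an enzyme of triglyceride synthesis, of -1.26 ± 0.64, with adjusted p = 0.302, 0.158 and 0.415. Left-out libraries moved these values both ways. Lpl was called at -2.16 without LF-C-2 (adjusted p = 0.00797) and Pdk4 at -2.65 without LF-C-3 (adjusted p = 0.0313). Without LF-KO-2, Lpl had -1.06 (adjusted p = 0.492), Pdk4 -1.75 (0.35) and Mogat1 -0.64. Cd36, a fatty acid carrier often named with PPARγ, averaged 293 CPM in HF-C and 253 in HF-KO, against 92.1 in LF-C and 129.7 in LF-KO, with diet effects of 1.67 ± 0.35 in control livers (adjusted p = 0.00178) and 0.96 ± 0.34 in KO-labelled livers (0.128; interaction -0.71 ± 0.47, adjusted p = 0.54, or -0.18 without LF-KO-2). The droplet protein Cideb stood at 16.3 CPM in HF-C and 17.3 in HF-KO, against 18.3 in LF-C and 19.5 in LF-KO, with an interaction close to 0 (SE 0.28). The remaining members, Vldlr, Fabp4, Fabp5, G0s2, Fitm1, Fitm2, Angptl4, Acot1, Ucp2, S100g, Bscl2 and Pnpla2, lay between -0.88 (Vldlr) and 3.85 (S100g), with adjusted p from 0.305 to 0.994. S100g overlaps Ctps2 and Cideb overlaps Nop9, each with more reads than the member. The S100g value rests on LF-C-2, which held 14.9 CPM where the other 3 LF-C libraries held at most 0.204.

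The region around the start of 4 called genes is shown because the targeted receptor acts through DNA. Cidec and Plin4 had the smallest adjusted p of the lower genes. Cyp2c29 and Slco1a1 were picked from the higher genes because their windows hold a match to the letters given below. The 4 windows therefore do not compare the 2 directions, and Treh, a lower gene with a match, is not shown. Each window runs 5′ to 3′ on the gene's strand, from 250 bases before to 50 bases after the RefSeq start on GRCm38.p6, and is taken from RefSeq. Capitals mark a match, within 2 mismatches on either strand, to AGGTCANAGGTCA (named DR1), the repeat that PPAR and RXR dimers bind.
Cidec promoter, chr6:113435711-113436010, minus strand: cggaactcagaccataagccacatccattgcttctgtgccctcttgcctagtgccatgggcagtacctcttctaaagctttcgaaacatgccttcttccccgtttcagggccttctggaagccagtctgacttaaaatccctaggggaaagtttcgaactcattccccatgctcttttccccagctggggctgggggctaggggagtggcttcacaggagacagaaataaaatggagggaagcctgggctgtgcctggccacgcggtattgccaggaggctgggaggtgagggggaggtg
Plin4 promoter, chr17:56109733-56110032, minus strand: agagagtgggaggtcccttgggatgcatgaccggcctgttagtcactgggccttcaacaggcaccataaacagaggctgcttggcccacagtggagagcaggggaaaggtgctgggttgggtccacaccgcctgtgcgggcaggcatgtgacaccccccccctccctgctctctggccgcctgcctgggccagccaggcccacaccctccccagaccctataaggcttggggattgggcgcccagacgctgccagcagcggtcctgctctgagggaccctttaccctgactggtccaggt
Cyp2c29 promoter, chr19:39286835-39287134, plus strand: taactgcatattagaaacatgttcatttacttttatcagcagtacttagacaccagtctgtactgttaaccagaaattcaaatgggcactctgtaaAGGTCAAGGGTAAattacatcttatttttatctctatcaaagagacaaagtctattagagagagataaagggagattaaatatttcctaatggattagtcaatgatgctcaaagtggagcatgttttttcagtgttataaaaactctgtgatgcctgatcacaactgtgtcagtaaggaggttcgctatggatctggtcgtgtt
Slco1a1 promoter, chr6:141946913-141947212, minus strand: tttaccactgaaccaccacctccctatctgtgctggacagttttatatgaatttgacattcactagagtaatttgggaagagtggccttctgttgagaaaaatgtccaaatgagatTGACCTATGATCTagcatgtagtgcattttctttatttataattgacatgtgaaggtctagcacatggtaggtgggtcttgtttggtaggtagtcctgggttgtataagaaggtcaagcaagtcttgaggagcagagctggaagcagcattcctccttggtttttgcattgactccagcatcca
The match in Cyp2c29 lies 154 to 142 bases before the start, and that in Slco1a1 lies 134 to 122 bases before it on the other strand, with 1 mismatch. The windows of Cidec and Plin4 hold no such letters, which says nothing about the receptor's binding elsewhere. The Cyp2c29 start in RefSeq lies 17680 bases from the first position that the deposited tables list for the gene. Gene positions elsewhere in the text are those of the tables, whose build is not stated. A window was found for 18 of the 29 called genes, and 3 of them held a DR1 match (Cyp2c29, Slco1a1 and Treh), beside 335 of 10363 tested genes (3.233%) and 1268 of all 32851 windows (3.86%). The STAT letters TTCNNNGAA, allowing 0 mismatches, were in 0 of the 18, beside 7.102% of tested genes and 8.298% of all windows.

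Other genes with a lower value have varied roles. Fam83a, a signalling scaffold known from tumours (ENSMUSG00000051225, chromosome 15, 57985419 to 58011009), stood at 0.714, 0.949, 0.817 and 0.666 CPM in LF-C and 1.92, 2.32, 1.05 and 0.825 in LF-KO. It reached 35.2, 37.3, 15.5, 46.4 and 35.9 CPM in HF-C and ran from 5.57 to 12.4 CPM with a median of 7.05 in HF-KO. The HF diet thus raised it in both genotypes without overlap, and less in KO-labelled livers (log2 2.32 ± 0.33 against 5.42 ± 0.39), an interaction of -3.10 ± 0.48 (adjusted p = 0.00783). Fam83a lost its call in limma-voom, where the highest adjusted p was 0.102.

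Kbtbd11, a Kelch and BTB domain protein, averaged 12.4 ± 2.05 CPM in HF-C and 1.13 ± 0.414 in HF-KO, against 1.71 ± 0.774 in LF-C and 0.886 ± 0.340 in LF-KO (SD). Its interaction was -2.49 ± 0.46 (adjusted p = 0.0217), and it no longer passed when LF-KO-1, LF-KO-2 or HF-C-2 was left out (highest adjusted p = 0.0936). Hr, a corepressor of nuclear receptors, averaged 8.26 ± 2.63 CPM in HF-C and 1.64 ± 0.554 in HF-KO, against 0.811 ± 0.269 in LF-C and 0.916 ± 0.145 in LF-KO, an interaction of -2.46 ± 0.45 (adjusted p = 0.0217). Hr lost its call without LF-KO-1 (adjusted p = 0.0574) or LF-KO-2 (0.0537). It also lost it in limma-voom, with or without quality weights, and with the replicate number as a block (highest adjusted p = 0.123). In both genes the HF-C livers stood above all 14 others, and the 3 other groups were low.

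Clstn3, a membrane protein of the calsyntenin family, and Enc1, an actin-binding Kelch protein, were well expressed outside HF-C. Clstn3 averaged 49.2 ± 9.73 CPM in HF-C and 12.1 ± 3.27 in HF-KO, against 18.9 ± 3.12 in LF-C and 13.3 ± 3.61 in LF-KO (interaction -1.50 ± 0.31, adjusted p = 0.0462). Enc1 averaged 35.8 ± 5.20 CPM in HF-C and 17.3 ± 4.49 in HF-KO, against 10.3 ± 2.18 in LF-C and 13.8 ± 3.81 in LF-KO (interaction -1.47 ± 0.31, adjusted p = 0.0493). Both lay near the threshold and were called in 11 of 31 alternatives each. Without LF-C-2 their values were -1.37 and -1.32, with adjusted p = 0.0678 and 0.066.

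Treh and Cpe were expressed at a few CPM. Treh, which splits the sugar trehalose, averaged 6.10 CPM in HF-C and 1.75 in HF-KO, against 1.08 in LF-C and 1.37 in LF-KO (interaction -2.14 ± 0.43, adjusted p = 0.0379). Treh overlaps Phldb1, which had 3340 reads in all libraries against its 871, and it passed in 6 of the 19 fits with 1 library left out. Cpe, which trims prohormones, averaged 2.18 CPM in HF-C and 0.7095 in HF-KO, against 1.02 in LF-C and 1.71 in LF-KO (interaction -2.33 ± 0.45, adjusted p = 0.0351), and was called in 18 of 31.

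Genes with a higher value were led by cytochromes of the Cyp2c family, monooxygenases of drugs, steroids and arachidonic acid. Cyp2c29 (ENSMUSG00000003053, chromosome 19, 39269405 to 39330713) stood at 678, 756, 870.3 and 579 CPM in LF-C and 488, 695, 621 and 659 in LF-KO. In HF-C it stood at 284, 193, 230.4, 208 and 129 CPM, and in HF-KO it ran from 527 to 853 CPM with a median of 716. The HF diet therefore lowered it in control livers (log2 -1.79 ± 0.20), and in KO-labelled livers HF-KO overlapped LF-KO (0.20 ± 0.19). The interaction was 1.99 ± 0.28 (adjusted p = 0.0025), between 1.84 and 2.12 with any 1 library left out.

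Of 12 Cyp2c genes tested on chromosome 19, between 39007019 and 44029247, 5 were called, all higher, beside 0.125% of all genes. Cyp2c37 averaged 62.3 ± 18.6 CPM in HF-C and 278 ± 69.6 in HF-KO, against 302 ± 73.1 in LF-C and 307 ± 80.2 in LF-KO (SD; interaction 2.13 ± 0.36, adjusted p = 0.0148). Cyp2c54 averaged 18.7 ± 6.18 CPM in HF-C and 152 ± 37.5 in HF-KO, against 137 ± 66.3 in LF-C and 199 ± 62.99 in LF-KO (interaction 2.49 ± 0.44, adjusted p = 0.0167). Cyp2c50 (interaction 1.36 ± 0.28, adjusted p = 0.0433) and the low Cyp2c40 (3.35 ± 0.65, adjusted p = 0.0348) were the other 2. Without LF-KO-1 the adjusted p of these 4 ran from 0.0514 (Cyp2c37) to 0.113 (Cyp2c50), past the threshold in none. In the same cluster Cyp2c38 and Cyp2c39, which lie between Cyp2c29 and Cyp2c40, had values of -0.63 ± 0.37 and -1.15 ± 0.49, neither called. These genes are close copies, so reads may be shared or dropped between them, and values of single members are uncertain.

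Slco1a1, which takes up bile acids and other anions from blood (ENSMUSG00000041698, chromosome 6, 141907282 to 141946962), stood at 305, 357, 397 and 539.9 CPM in LF-C and 251, 145, 429.7 and 589 in LF-KO. It fell to 19.4, 29.5, 25.3, 11.4 and 13.1 CPM in HF-C, and ran from 41.4 to 308 CPM with a median of 231 in HF-KO. All HF-KO livers lay above all HF-C livers, HF-KO-1 by the least, and the other 5 lay within the range of LF-KO. The interaction was 3.58 ± 0.63 (adjusted p = 0.0167), with adjusted p = 0.052 without LF-KO-1 and 0.0537 without LF-KO-2. Of its neighbours in the same family, Slco1a4 had an interaction of -0.15 ± 0.33 and Slco1b2 of 0.06 ± 0.35, with adjusted p = 0.889 and 0.964. Slc10a1, the main bile acid importer, had 0.81 ± 0.24 (adjusted p = 0.176).

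Susd4, a membrane protein that restrains complement (ENSMUSG00000038576, chromosome 1, 182763860 to 182896598), stood at 31.6, 31.9, 27.7 and 35.4 CPM in LF-C and 27.1, 13.3, 18.97 and 42.1 in LF-KO. In HF-C it stood at 4.97, 5.01, 3.94, 5.97 and 3.13 CPM, and in HF-KO it ran from 12.4 to 27.2 CPM with a median of 18.6. All HF-C livers were the lowest, and HF-KO overlapped LF-KO while lying below every LF-C library. The interaction was 2.37 ± 0.39 (adjusted p = 0.0148). Lrtm1, a leucine-rich repeat membrane protein, averaged 2.28 ± 1.15 CPM in HF-C and 22.9 ± 5.77 in HF-KO, against 13.05 ± 7.57 in LF-C and 19.2 ± 1.88 in LF-KO (SD; interaction 2.78 ± 0.49, adjusted p = 0.0167). BC089597, for which no role is given here, averaged 16.5 ± 4.63 CPM in HF-C and 70.7 ± 18.6 in HF-KO, against 131 ± 59.7 in LF-C and 127 ± 24.4 in LF-KO (interaction 2.15 ± 0.37, adjusted p = 0.0167). Lrtm1 and BC089597 lost their calls without LF-KO-1 (adjusted p = 0.0514 for each) or LF-KO-2 (0.0537 and 0.054).

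The largest interaction values among the called genes were in male-biased liver genes. Hsd3b5, a steroid enzyme (ENSMUSG00000038092, chromosome 3, 98618636 to 98630309), stood at 72.5, 239, 114 and 151 CPM in LF-C and 36.2, 8.62, 69.4 and 207 in LF-KO. It was almost lost in HF-C, at 0.113, 0.175, 0.571, 0.219 and 0.147 CPM, and ran from 1.51 to 41.1 CPM with a median of 12.7 in HF-KO. Thus HF-KO lay wholly above HF-C, and the highest HF-KO libraries lay within the LF-KO range. The interaction was 6.98 ± 1.23 (adjusted p = 0.0167), which did not pass in limma-voom (highest adjusted p of the alternatives 0.144) or without LF-KO-1 (0.0514). Mup7, a urinary pheromone carrier (ENSMUSG00000073842, chromosome 4, 60066469 to 60070475), averaged 2.87 ± 1.47 CPM in HF-C and 85.9 ± 84.1 in HF-KO, against 462 ± 228 in LF-C and 203 ± 244 in LF-KO (SD; interaction 6.09 ± 1.21, adjusted p = 0.0379). Mup7 was called in 8 of the 19 fits with a library left out. Of 17 Mup genes tested on chromosome 4, 16 had a value above 0, with a median of 2.45. The members differed in which diet gave the value. Mup3 and Mup21 had KO effects of log2 1.95 and 1.95 on HF, and -0.50 and -0.52 on LF. Mup17 and Mup15 were below 0 on both diets, at -0.83 and -0.49 on HF and -4.19 and -3.07 on LF. Mup7 was the 1 called, beside 0.125% of all genes called higher. The Mup genes are near-identical copies whose reads may be shared, so they are not 17 separate measurements.

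Hsd3b5 and Mup7 were 2 of 23 tested genes listed as driven by growth hormone or sex. These 2 were called higher, beside 0.125% of all genes. Counting them, 9 had an unadjusted p under 0.05 with a higher value (7.77% of all genes) and 1 with a lower one (5.13%). The median of the list was 0.58, 0.38 without LF-C-4 and 0.89 without LF-KO-4. The list's median KO effect was -0.33 on the LF diet and 0.38 on the HF diet. Its members Elovl3, an elongase of fatty acids (1.67 ± 0.61), Cyp7b1, an enzyme of the acidic bile acid pathway (1.43 ± 0.46), Nudt7, a coenzyme A hydrolase of peroxisomes (1.24 ± 0.31), and Mup3 (2.45 ± 0.55) did not pass, with adjusted p = 0.294, 0.218, 0.0928 and 0.0702. The regulators in the list were not called: Ghr, the receptor of growth hormone, 0.47 ± 0.26, Stat5b, its signal carrier, 0.14 ± 0.33, and Bcl6, a repressor that opposes STAT5 in liver, -1.43 ± 0.62, with adjusted p = 0.457, 0.894 and 0.35.

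A marker of resident macrophages was also among the higher genes. Cd163, the macrophage receptor for haemoglobin bound to haptoglobin (ENSMUSG00000008845, chromosome 6, 124304651 to 124330527), stood at 14.7, 13.9, 37.9 and 30.1 CPM in LF-C and 15.8, 12.97, 17.3 and 17.997 in LF-KO. In HF-C it stood at 0.846, 3.44, 1.30, 3.84 and 1.12 CPM, and it ran from 3.77 to 28.1 CPM with a median of 11.6 in HF-KO, where the lowest library, HF-KO-6, overlapped HF-C. The interaction was 3.31 ± 0.67 (adjusted p = 0.0413), called in 7 of the 19 fits with a library left out (highest adjusted p = 0.11). Of 10 Kupffer cell markers tested, 8 had a value above 0 and 2 below, the lowest -0.29. Cd163 was the 1 called, beside 0.125% of all genes called higher. Timd4, a receptor for dying cells, had 2.56 ± 0.77 and Clec4f, a lectin of Kupffer cells, 1.26 ± 0.45, with adjusted p = 0.178 and 0.28. The list's median was 1.03, and 0.37 without LF-C-2; its summed level was 504 to 847 CPM in HF-C and 422 to 909.7 in HF-KO, against 336 to 1021 in LF-C and 278 to 371 in LF-KO. The median KO effect of the listed markers was -0.63 on the LF diet and 0.13 on the HF diet, where Cd163 had -0.60 and 2.71. The list's value thus came mostly from the LF diet and that of Cd163 mostly from the HF diet. In whole liver, fewer cells of a type and less RNA per cell cannot be told apart.

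Ccl24, a chemokine that attracts eosinophils, was 1 of 2 called genes whose KO effect was larger on the LF diet than on the HF diet. It stood at 4.18, 10.1, 2.52 and 2.06 CPM in LF-C and 1.09, 1.10, 1.57 and 0.975 in LF-KO. In HF-C it stood at 1.86, 1.75, 1.09, 2.08 and 2.25 CPM, and it ran from 2.68 to 5.05 CPM with a median of 2.91 in HF-KO. The groups did not overlap on either diet, with control above KO on LF and below it on HF: the KO effect was log2 -1.99 ± 0.41 on LF and 0.88 ± 0.34 on HF, neither past the threshold. The interaction was 2.87 ± 0.53 (adjusted p = 0.0217), and 2.21 without LF-C-2, the highest LF-C library (adjusted p = 0.0186). Without LF-KO-1 or LF-KO-2 the adjusted p of Ccl24 was 0.0574 or 0.0666.

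The remaining 5 higher genes were Alas2, Bdh2, Acpp, Chic1 and 2810007J24Rik. Alas2, which opens haem synthesis in red cell precursors, averaged 41.1 ± 4.72 CPM in HF-C and 77.2 ± 19.2 in HF-KO, against 100.3 ± 36.6 in LF-C and 70.3 ± 3.75 in LF-KO (interaction 1.42 ± 0.29, adjusted p = 0.0478), called in 11 of 31 alternatives. The 5 erythroid markers tested, Alas2 and 4 globin genes, all had values above 0 (median 1.95, and 1.05 without LF-C-2). Their median KO effect was -1.36 on the LF diet and 0.91 on the HF diet. Their summed level was 139.8 to 204 CPM in HF-C and 180.4 to 413 in HF-KO, against 246 to 1533 in LF-C and 221 to 269 in LF-KO. The part of blood in the value was not tested. Bdh2, a hydroxybutyrate dehydrogenase, averaged 5.62 ± 0.872 CPM in HF-C and 14.5 ± 3.53 in HF-KO, against 26.3 ± 16.5 in LF-C and 17.5 ± 3.37 in LF-KO (interaction 1.95 ± 0.41, adjusted p = 0.0493), or 1.46 without LF-C-2, its highest library. Acpp, a secreted and lysosomal acid phosphatase, averaged 1.99 ± 0.503 CPM in HF-C and 6.34 ± 1.94 in HF-KO, against 12.6 ± 4.44 in LF-C and 10.4 ± 0.626 in LF-KO (interaction 1.95 ± 0.36, adjusted p = 0.0217). Chic1 (2.20 ± 0.45, adjusted p = 0.043) was called in 12 of 31 alternatives, and 2810007J24Rik (2.32 ± 0.43, adjusted p = 0.0217) in 28.

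The KO effects on the 2 diets share no library and can be set side by side. Of the 197 genes called higher in HF-KO than in HF-C (1.37%), 103 (52.3%) had the same sign on the LF diet, with a median LF effect of log2 0.03 against an HF effect of 1.12. Of the 334 called lower (2.32%), 225 (67.4%) had the same sign, with medians of -0.19 on LF and -1.16 on HF. Over all genes 57.0% had the same sign, and the correlation of the KO effects across genes was 0.15, a description over genes that are not independent. Of the 531 genes called on HF, 0 were also called on LF, where edgeR's test had 2037 genes (14.2%) at an unadjusted p under 0.05. DESeq2 called 26 genes on LF.

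Set out by genotype, the diet effects of control and KO-labelled livers also share no library. Across genes they correlated at 0.65, with an SD of 0.89 in control and 0.53 in KO-labelled livers. Of the 1912 genes called higher in control livers (13.3%), 1810 had the same sign in KO-labelled livers (94.7%), and the median was 1.41 in control and 0.70 in KO-labelled livers. Of the 1883 that were lower (13.1%), 1573 had the same sign (83.5%), with medians of -0.95 and -0.25. Genes picked for a large value in one set tend to show a smaller one in the other, so the reverse is given too: the 432 genes higher in KO-labelled livers (3%) had medians of 1.34 there and 1.62 in control livers, and the 94 lower (0.653%) had -0.94 and -0.89.

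**Figure D3:**
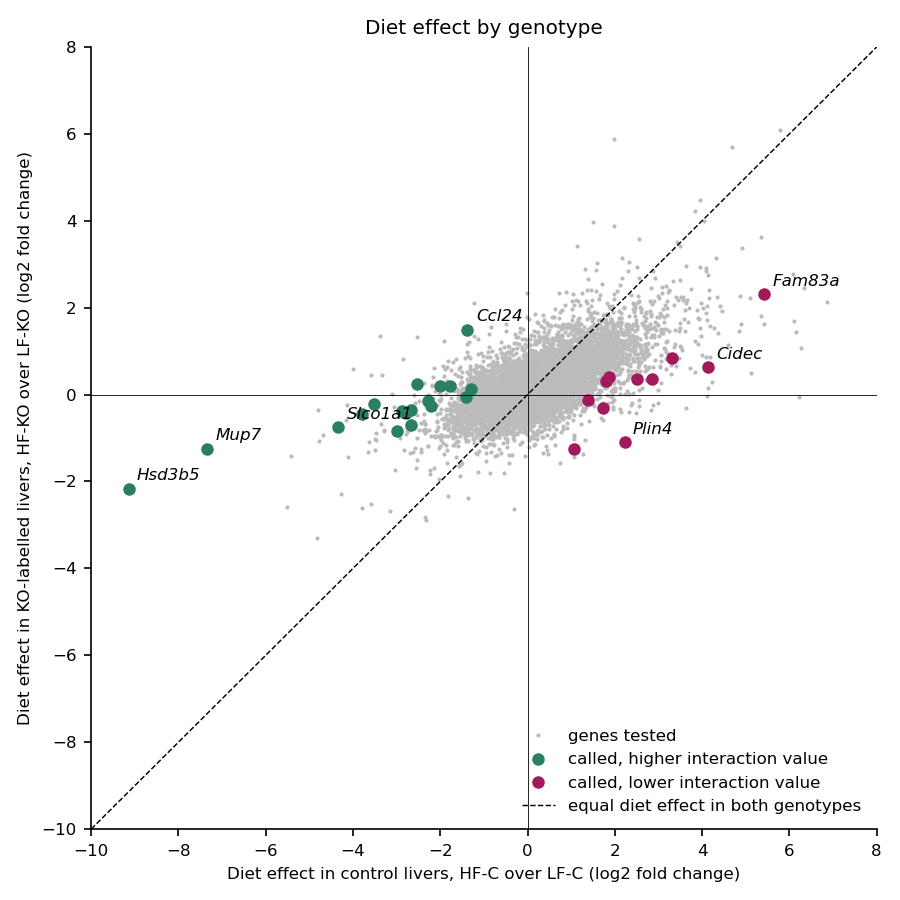
Diet effect in control livers (horizontal, log2) against that in KO-labelled livers (vertical, log2) for the 14391 genes tested, with the 29 called genes coloured and a dashed line of equal effects. Called genes lie far from 0 along the horizontal axis and mostly within 2 of 0 along the vertical one.

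Lists of genes written for liver were read by counts and medians, beside 0.125% called higher and 0.0764% called lower of all genes, with no test of the list. Genes of the extracellular matrix lay almost wholly on 1 side: of 31 tested, 30 had a value below 0, 0 were called, and 13 had an unadjusted p under 0.05 in the lower direction, beside 5.13% of all genes. The list's median was -0.86, between -1.05 and -0.72 with any 1 library left out. Col1a1, a chain of fibrillar collagen, averaged 140.2 CPM in HF-C and 34.9 in HF-KO, against 16.4 in LF-C and 13.2 in LF-KO (interaction -1.70 ± 0.65, adjusted p = 0.309). Col3a1, another fibrillar chain, had -1.62 ± 0.49 (adjusted p = 0.18), and Lox, which cross-links collagen, -2.82 ± 0.66 (adjusted p = 0.0807). Thbs1, a matrix activator of TGF-beta, had -1.85 ± 0.46 (adjusted p = 0.0928).

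Markers of lipid-associated macrophages, the phagocytes that gather at fat-laden cells, had a median of -1.10 over 12 tested. Of these, 9 were below 0, 0 were called and 4 had an unadjusted p under 0.05 in the lower direction, beside 5.13% of all genes. The list's median rested on 1 library, as it was -0.19 without LF-KO-2. The member with the smallest p, Spp1 or osteopontin, averaged 335 CPM in HF-C and 129 in HF-KO, against 36.6 in LF-C and 55.4 in LF-KO (interaction -1.97 ± 0.43, adjusted p = 0.0576). Spp1 was called at -2.13 without LF-KO-4 (adjusted p = 0.0377), -2.17 without HF-C-3 (adjusted p = 0.0182) and -2.05 without HF-KO-1 (adjusted p = 0.0487). These were 3 of the 19 fits with a library left out, and without LF-KO-2 its adjusted p was 0.154. The summed level of these markers was 1443 to 1636 CPM in HF-C and 719 to 1095 in HF-KO, against 440.5 to 1445 in LF-C and 433 to 689 in LF-KO. Recruited macrophage markers had a median of -0.41 over 14, and -0.02 without LF-KO-2. Cx3cr1, a chemokine receptor of monocytes, had -2.54 ± 0.63 (adjusted p = 0.0928), and LF-KO-2, at 3.73 CPM, was its highest LF-KO library. Cx3cr1 overlaps Wdr48, Gorasp1 and Csrnp1, each with more reads, which unstranded libraries cannot separate. Chemokines and cytokines had a median of -0.66 over 24, with 1 called higher, Ccl24, and 6 at an unadjusted p under 0.05 in the lower direction. Cell cycle genes had a median of -0.53 over 22, and -0.91 without LF-C-2, with 0 called and 4 at such a p, all lower, among them Cdkn1a, a brake on division (-2.37 ± 0.60, adjusted p = 0.0928).

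Genes of fatty acid oxidation, the targets of the sister receptor PPARα, had a median of -0.38 over 30 (-0.25 without LF-C-2), with 0 called. At an unadjusted p under 0.05 there were 9 in the lower direction, beside 5.13% of all genes, and 1 in the higher, beside 7.77%. Acot2, a mitochondrial thioesterase, averaged 29.2 CPM in HF-C and 11.8 in HF-KO, against 10.3 in LF-C and 13.6 in LF-KO (interaction -1.70 ± 0.36, adjusted p = 0.0549). Acot2 was called at -1.91 without LF-C-4 (adjusted p = 0.0351), -1.94 without LF-KO-2 (adjusted p = 0.029) and -1.82 without HF-KO-1 (adjusted p = 0.0372). These were 3 of the 19 fits with a library left out, and without LF-KO-1 it had -1.49 (adjusted p = 0.137). Vnn1, a pantetheinase, had -1.44 ± 0.34 (adjusted p = 0.0807). The entry enzyme Cpt1a had -0.42 ± 0.36 (adjusted p = 0.656). Receptors and partners of the PPAR family had 0 of 19 called and 0 at an unadjusted p under 0.05, with a median of 0.12 that changed sign in 8 of 31 alternatives, to -0.22 without LF-C-4 among them.

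In the higher direction, genes of methionine and one-carbon metabolism had a median of 0.37 over 24, with 0 called and 9 at an unadjusted p under 0.05, all higher, beside 7.77% of all genes. Gnmt, which consumes S-adenosylmethionine, averaged 623 CPM in HF-C and 1425 in HF-KO, against 3631 in LF-C and 1958 in LF-KO (interaction 2.08 ± 0.47, adjusted p = 0.0703), with LF-C-2 at 7452 CPM. Gnmt was called at 2.25 without LF-C-3 (adjusted p = 0.0392) and 2.23 without LF-C-4 (adjusted p = 0.0481). It was not called at 1.51 without LF-C-2 (adjusted p = 0.0773), 1.98 without LF-KO-1 (0.147) or 2.01 without LF-KO-2 (0.17). Bile acid genes had a median of 0.27 over 18, with Slco1a1 called and 5 at such a p, all higher. Nuclear-encoded subunits of the respiratory chain had 0.55 over 21, with 0 called, but 0.23 without LF-C-2. Hepatocyte markers stood beside these groups: 16 of 17 had a value above 0, 0 were called, 7 had such a p, and the median was 0.58, or 0.37 without LF-C-2. The median KO effect of the hepatocyte markers was -0.36 on the LF diet and 0.34 on the HF diet. That of the respiratory chain subunits was -0.35 on LF and 0.05 on HF, so their value came mostly from the LF diet. The summed level of the hepatocyte markers was 57370 to 73670 CPM in HF-C and 77490 to 96120 in HF-KO, against 100400 to 266000 in LF-C and 111400 to 149300 in LF-KO, and its part in the higher genes was not tested.

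Sinusoidal endothelial markers had values above 0 in 14 of 14. Of these, 0 were called and 7 had an unadjusted p under 0.05, all higher, beside 7.77% of all genes. Their median was 0.71, between 0.63 and 0.94 with any 1 library left out. Dnase1l3, a secreted nuclease, averaged 44.99 CPM in HF-C and 63.6 in HF-KO, against 111 in LF-C and 50.3 in LF-KO (interaction 1.65 ± 0.40, adjusted p = 0.0928). Clec4g, a lectin of these cells, had 1.68 ± 0.42 (adjusted p = 0.0928). The list's summed level was 368 to 638 CPM in HF-C and 409 to 624 in HF-KO, against 507 to 683 in LF-C and 317 to 541 in LF-KO, ranges that overlap between all 4 groups. Its KO effect was negative on the LF diet (median -0.48) and positive on the HF diet (0.23), so both diets add to the value. For matrix genes the median KO effect was -0.02 on LF and -0.95 on HF.

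The other lists held at most 1 called gene each. Genes of de novo lipogenesis had a median of 0.14 over 21, of triglyceride synthesis and lipolysis 0.07 over 18, of glucose and fructose metabolism 0.11 over 25 and of the circadian clock -0.02 over 18, with 0 called in each. Cholesterol synthesis had 0.33 over 24 and xenobiotic metabolism -0.31 over 23, the latter with Cyp2c29 called. Interferon response genes had -0.37 over 16, acute phase genes -0.07 over 20, cholangiocyte markers -0.42 over 12, stellate cell markers 0.40 over 15 and T and NK cell markers 0.09 over 15, with 0 called in each. Medians were 0.23 for sterol efflux, -0.24 for NRF2 targets, 0.20 for the stress responses, -0.17 for lysosomal enzymes and 0.07 for fetal liver genes. B cell markers had -0.18 over 7, and with 4 or 5 members tested neutrophil markers had 0.59, mesothelial and pancreatic markers 0.18 and adipocyte markers 0.25, the last with Cidec called and -0.78 without LF-C-2. Leaving out 1 library moved many of these medians. Without LF-C-2 they were -1.13 for cholangiocyte markers, -0.65 for B cell markers, -0.60 for interferon response genes, -0.39 for acute phase genes, -0.37 for fetal liver genes, -0.30 for lysosomal enzymes, -0.07 for NRF2 targets and 0.01 for the stress responses. Cholesterol synthesis turned to -0.10 without LF-C-1, and triglyceride and glucose genes to -0.22 and -0.03 without LF-C-4. De novo lipogenesis came close to 0 without LF-C-3, xenobiotic metabolism had -0.12 without LF-KO-2, T and NK cell markers 0.45 without HF-KO-2, stellate cell markers 0.22 without LF-KO-3 and sterol efflux 0.16 without HF-C-4. Without HF-KO-1, neutrophil markers had 1.61 and mesothelial and pancreatic markers -0.36. Scaled by library size alone, the median of all genes shifted by -0.23, so medians under that scaling are read against it.

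Some further genes did not pass the threshold but had values above or below 0. Neat1, a long noncoding RNA of nuclear paraspeckles, averaged 685 CPM in HF-C and 314 in HF-KO, against 176 in LF-C and 303 in LF-KO (interaction -1.91 ± 0.40, adjusted p = 0.0549), and was called at -2.18 without LF-C-3 (adjusted p = 0.0237), -1.996 without HF-KO-1 (adjusted p = 0.0452) and -1.75 without HF-KO-2 (adjusted p = 0.0282). Serpina1c, an alpha-1 antitrypsin, averaged 123 CPM in HF-C and 258 in HF-KO, against 823 in LF-C and 459 in LF-KO (interaction 1.91 ± 0.47, adjusted p = 0.0928); it has near-identical copies, and LF-C-2 held 1833 CPM of it. Agpat9, an acyltransferase that opens glycerolipid synthesis, averaged 21.95 CPM in HF-C and 11.8 in HF-KO, against 9.64 in LF-C and 13.7 in LF-KO (interaction -1.40 ± 0.35, adjusted p = 0.0928), and was called at -1.68 without LF-KO-4 (adjusted p = 0.00811). Ccna2, a cyclin of S phase and mitosis, had -2.20 ± 0.54 (adjusted p = 0.0928) and overlaps Exosc9, which had more reads. Pmvk, a kinase of cholesterol synthesis, had 1.43 ± 0.37 (adjusted p = 0.109), and Slc2a5, the fructose transporter GLUT5, 1.33 ± 0.39 (adjusted p = 0.16). Ccna2 was called at -2.67 without LF-C-2 (adjusted p = 0.0396) and Pmvk at 1.62 without LF-C-4 (adjusted p = 0.0462). Without LF-KO-1 the adjusted p of Neat1, Agpat9, Ccna2 and Pmvk was 0.1, 0.2, 0.163 and 0.219, past the threshold in none.

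Members named for the other lists were not called. Lcn2, an acute phase siderophore binder, averaged 139 CPM in HF-C and 58.7 in HF-KO, against 12.4 in LF-C and 18.8 in LF-KO (interaction -1.85 ± 0.55, adjusted p = 0.172). Values below 0 were also those of Atf3, a stress transcription factor (-1.35 ± 0.44), Gbp3, an interferon-induced GTPase (-1.05 ± 0.29), Elovl7, a fatty acid elongase (-1.86 ± 0.62), Soat1, which esterifies cholesterol (-0.78 ± 0.28), Atp6v0d2, a proton pump subunit (-1.14 ± 0.44), Slc7a11, the cystine importer (-3.38 ± 1.19), Ly6d (-2.87 ± 1.00) and Blnk, a B cell adaptor (-0.72 ± 0.48). Values above 0 were those of Nr1h3 or LXRα (0.67 ± 0.32), Colec10, a stellate cell collectin (1.46 ± 0.46), Klrd1, an NK cell receptor (1.48 ± 0.80), S100a8, a neutrophil protein (1.61 ± 0.73), Cela1, a pancreatic elastase (1.05 ± 0.47), and Atp5o, a subunit of ATP synthase (1.41 ± 0.55). Their adjusted p ran from 0.139 (Gbp3) to 0.543 (Blnk). With a library left out, Ly6d was called at -4.78 without LF-C-2 (adjusted p = 0.0294), Atp6v0d2 at -1.83 without LF-C-4 (adjusted p = 0.0351) and Colec10 at 1.79 without LF-C-2 (adjusted p = 0.0456). Without LF-KO-2 the values of Ly6d, Atp6v0d2 and Colec10 were -1.62, -0.96 and 1.475, with adjusted p = 0.551, 0.496 and 0.364. Ly6d, Atp5o, S100a8 and Slc7a11 each had an LF-C-2 value apart from the other LF-C libraries. Cela1 was also highest there, at 115 CPM beside 41.5, 25.1 and 34.1. Without LF-C-2 the values fell to 0.53 for Atp5o, 0.74 for S100a8, 0.41 for Cela1 and 0.38 for Nr1h3. That of Slc7a11 moved to -5.16. The adjusted p of these genes then ran from 0.214 (Slc7a11) to 0.751 (S100a8).

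**Figure D4:**
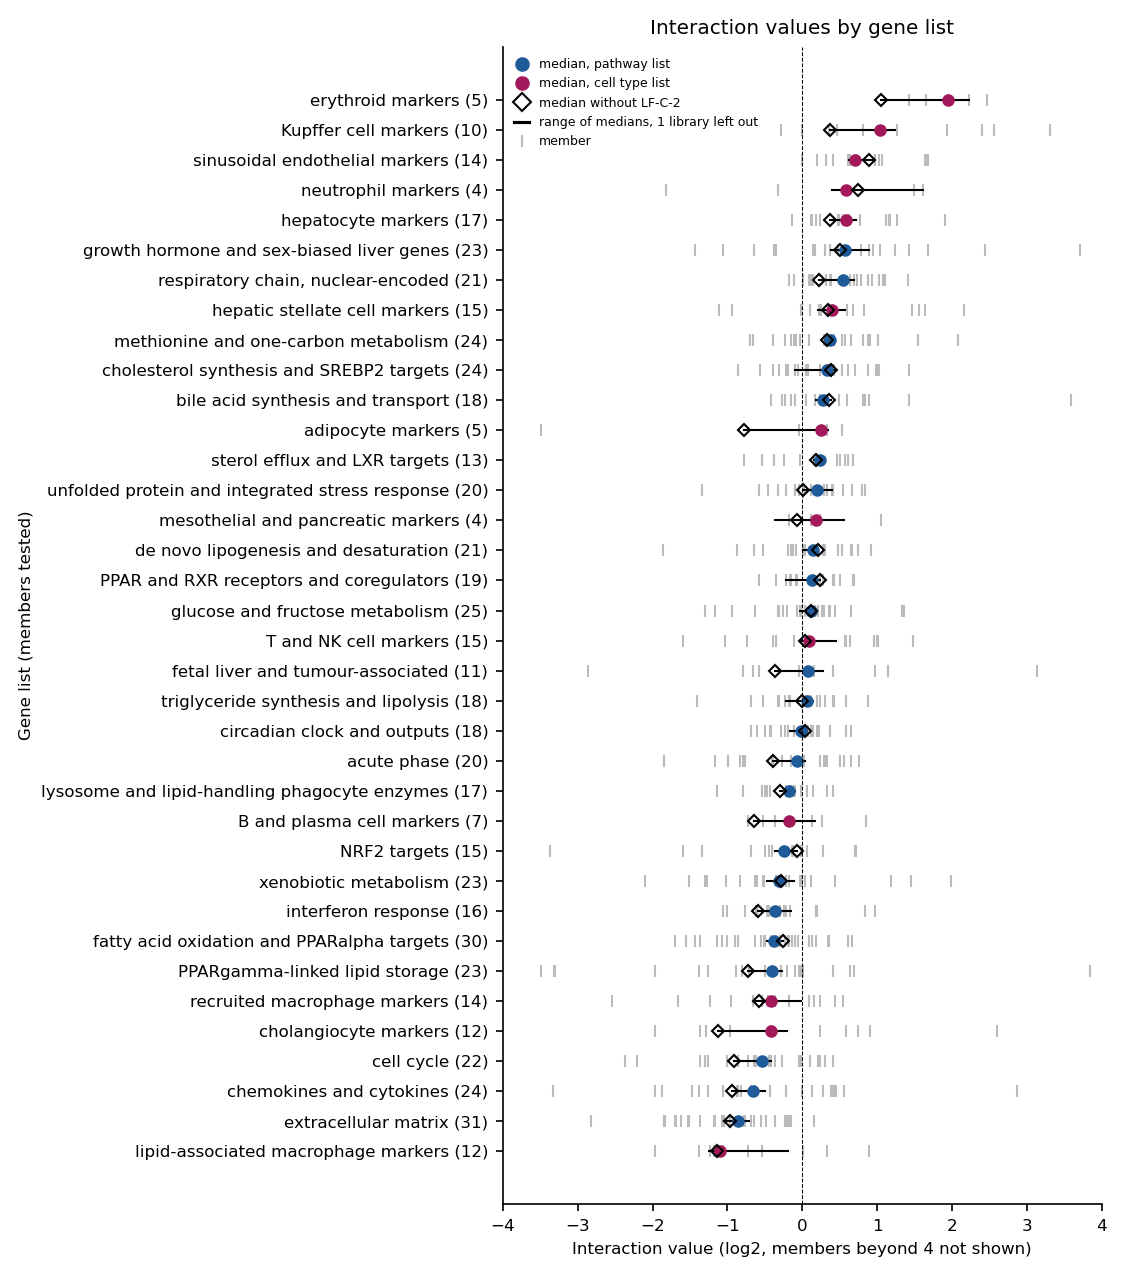
Interaction log2 values by gene list: grey ticks are members, filled circles medians (pathway lists blue, cell type lists red), open diamonds medians without LF-C-2, and lines the range of medians when 1 library was left out. Lipid-associated macrophage and matrix lists lie lowest and erythroid and Kupffer lists highest, and the diamonds of the latter 2 lie well below their circles.

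How firmly each call stands was read from 31 alternative fits, 19 with 1 library left out and 12 with another tool, scaling, filter, block or pair of libraries removed. All 29 genes kept their sign in each of the 31. Cidec, Plin4, Cyp2c29 and Susd4 were called in all 31, 17 of the 29 were called in at least 25, and the fewest was 11. Among the fits with 1 library left out the counts were lowest for LF-KO-1 and LF-KO-2: without LF-KO-1, 2 genes were called higher and 5 lower, and without LF-KO-2, 3 and 4, of which 6 each were among the 29. Without LF-C-2 the numbers were 26 and 15, with 27 of the 29 called; without HF-KO-1 they were 29 and 19, and without LF-KO-4 25 and 17. Without LF-C-3 they were 25 and 19, without LF-KO-3 11 and 8, without HF-C-1 11 and 7, without HF-C-2 13 and 5, and without HF-C-4 12 and 7. Without HF-KO-3 they were 11 and 8, without HF-KO-4 18 and 7, and without HF-KO-5 11 and 9.

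**Figure D5:**
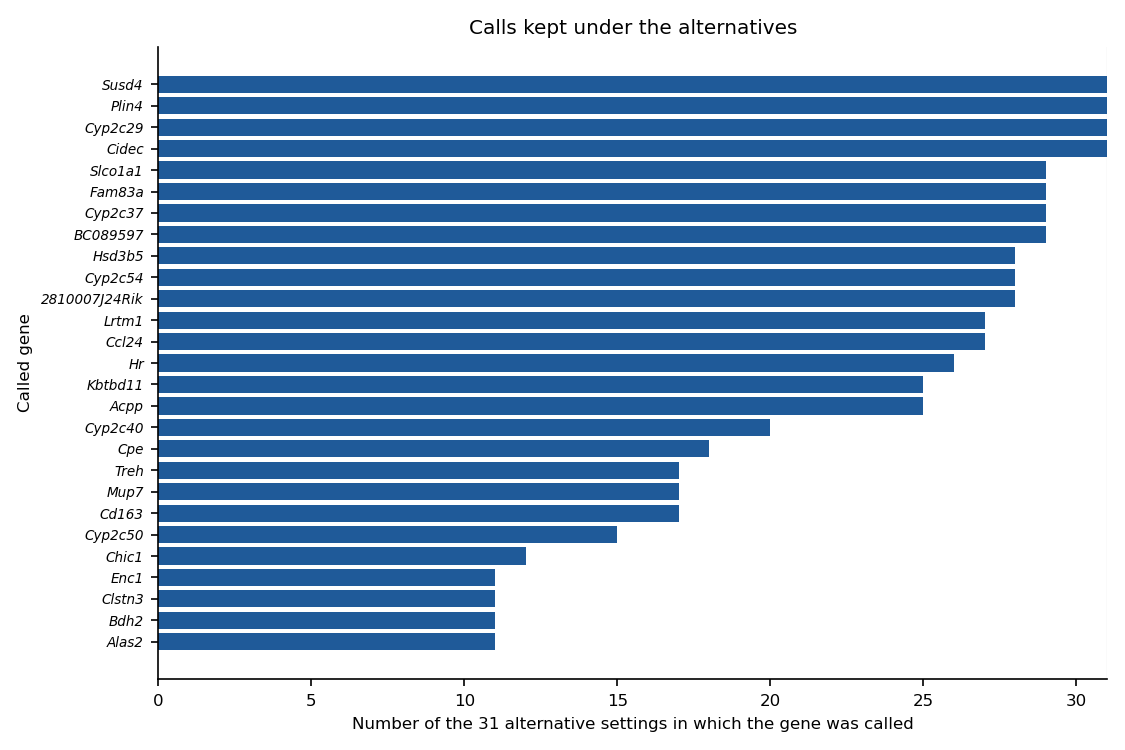
For 27 of the 29 called genes, the number of the 31 alternative fits in which it was called at an adjusted p under 0.05 (horizontal bars). Susd4, Plin4, Cyp2c29 and Cidec reach 31, and Enc1, Clstn3, Bdh2 and Alas2 are lowest at 11.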

How the data were processed

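Whole liver RNA of 19 mice was sequenced as unstranded read pairs, per the labels' protocols, which name STAR 2.5 as the aligner; HTSeq 0.6.1 and DESeq2 stand in the submitters' processing notes. Neither genome build nor annotation is given in the sources used here. The authors deposited 4 tables of raw read counts per gene, 1 per pair of groups, with positions and gene lengths. Joining them on the identifiers gave 24192 genes, a gene missing from a table taken as 0; each library stood in a pair of tables with identical counts (38 columns), and 0 count columns lacked a sample. Totals ran from 11437875 to 20711869 counts, and no replicate pair agreed within sampling noise (lowest mean chi-square 7.13 per gene). Counts are of fragments without molecular identifiers, so counting error is a lower limit.

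The counts of all 19 libraries were fitted together in R 4.3.3 with edgeR 4.0.16 (TMM factors, filterByExpr, quasi-likelihood test, 1 mean per group), leaving 14391 genes. The interaction, the 2 KO effects and the 2 diet effects are contrasts of this fit, so the latter share libraries with the interaction. P-values are two-sided and Benjamini-Hochberg adjusted over all genes tested, with a threshold of 0.05. SEs are the absolute log2 value over the square root of the F statistic. The files give 1 library per mouse. Alternatives used DESeq2 1.42.0, limma 3.58.1, other scalings and filters, a gene length trend (loess span 0.5) as an offset, a replicate block and left-out libraries. The fit was tested on simulated counts.

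Gene lists (36, with 594 of 627 symbols tested, 8 under another symbol) and the rule for named genes were chosen with earlier results of these data known. Named genes are Pparg, up to 12 called genes per direction averaging 5 CPM or more in a group, filled up by the next smallest p, all tested members of the PPARγ-linked list, and 1 or 2 members of each other list; called genes and some further members were added after their values were seen. Results for some genes are not reported here. Promoter windows are RefSeq's on GRCm38.p6, matched by symbol.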

Additional observations from a re-analysis of the deposited data

Results flagged for a closer look

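The KO effect differed between the diets, by the test of the difference itself, in 29 genes (edgeR's quasi-likelihood test, adjusted p under 0.05). Among the 11 lower genes, log2 values were -3.49 (Cidec), -3.31 (Plin4), -3.10 (Fam83a), -2.46 (Hr), -2.49 (Kbtbd11), -2.33 (Cpe), -2.14 (Treh), -1.50 (Clstn3) and -1.47 (Enc1). The log2 values of the 18 higher genes were 1.99 (Cyp2c29), 2.37 (Susd4), 2.13 (Cyp2c37), 2.15 (BC089597), 2.78 (Lrtm1), 3.58 (Slco1a1), 2.49 (Cyp2c54), 6.98 (Hsd3b5), 2.32 (2810007J24Rik), 2.87 (Ccl24), 1.95 (Acpp), 3.35 (Cyp2c40), 6.09 (Mup7), 3.31 (Cd163), 2.20 (Chic1), 1.36 (Cyp2c50), 1.42 (Alas2) and 1.95 (Bdh2).

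Among named genes, 1 library stood far from the rest of its group in 26 of 304 pairs of gene and group, where chance gives about 15.2. LF-C-2 accounted for 10 of the 26. Its values were Cidea (1.58 CPM, others 0 to 0.204), S100g (14.9 CPM, others 0.102 to 0.204), Plin5 (134 CPM, others 55.1 to 62.9), Fabp4 (31.6 CPM, others 6.79 to 10.01), Gnmt (7452 CPM, others 2090.4 to 2734), Slc7a11 (0.0791 CPM, others 0 to 0), Ly6d (10.3 CPM, others 0.333 to 1.22), Atp5o (586 CPM, others 98.9 to 174), Serpina1c (1833 CPM, others 479 to 491) and S100a8 (2.69 CPM, others 0.533 to 0.714). The same library held the fat cell transcripts given above; the part of fat tissue in these values was not tested. Slc7a11 and Cidea are near the detection limit in the LF-C group, and each exact 0 is a count of 0 reads.

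Elsewhere single values stood apart from their own group. On the LF diet these were, in LF-C-1, Hr (0.408 CPM, others 0.932 to 0.953); in LF-C-3, Acpp (19.3 CPM, others 10.1 to 10.8), G0s2 (131 CPM, others 252 to 265) and Blnk (1.36 CPM, others 4.13 to 4.27); and in LF-C-4, Cpe (1.80 CPM, others 0.681 to 0.870). In LF-KO-2 they were Fabp4 (18.4 CPM, others 6.71 to 8.10), Acot1 (24.1 CPM, others 81.04 to 87.8) and Cx3cr1 (3.73 CPM, others 1.27 to 1.57) and in LF-KO-3 Lox (4.48 CPM, others 1.12 to 1.66). On the HF diet they were, in HF-C-3, Hsd3b5 (0.571 CPM, others 0.113 to 0.219), Lpl (323 CPM, others 191 to 214) and Plin5 (69.8 CPM, others 54.2 to 58.8), in HF-KO-1 Vldlr (8.83 CPM, others 2.58 to 4.01), in HF-KO-2 G0s2 (164 CPM, others 73.3 to 104) and Ucp2 (21.3 CPM, others 49.5 to 63.02) and in HF-KO-6 Fam83a (12.4 CPM, others 5.57 to 8.07).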

How the results depend on the processing

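With 4 or 5 libraries in 3 of the groups, the number of calls moved with the setting more than the values did: no named gene that was called changed sign in any alternative. The reported fit gave 18 genes higher, 11 lower, 531 for the KO effect on HF and 1 on LF. In the same order the counts were 115, 98, 964 and 26 in DESeq2, which called all 29 genes and gave 17 adjusted p-values as NA. They were 10, 6, 630 and 0 in limma-voom, 59, 44, 2650 and 2 in limma-voom with quality weights, 8, 7, 621 and 1 with library size alone, 25, 17, 472 and 2 without the filter on low counts, and 54, 18, 859 and 5 with the gene length trend removed, which shifted the median of all genes by 0.108. They were 16, 10, 506 and 1 with a robust prior, 16, 11, 524 and 1 with median-of-ratios factors and 18, 11, 525 and 1 with the stricter filter. Fits of 1 diet alone called 1360 genes on HF and 0 on LF. Of the alternatives chosen after seeing the data, leaving out LF-C-1 and LF-C-2 gave 44, 21, 1608 and 1, and leaving out LF-C-2 and HF-KO-2 gave 39, 24, 1017 and 2. With 1 library left out, calls ranged from 2 to 29 higher, 4 to 19 lower, 211 to 1219 for the KO effect on HF and 0 to 6 on LF. The HF count was 1219 without LF-C-2, and 271, 294, 252 and 211 without HF-C-1, HF-C-2, HF-C-4 and HF-C-5, and 344 and 233 without HF-KO-2 and HF-KO-3. The LF count was 6 without LF-C-4, 3 without HF-KO-2, 2 without LF-KO-4 and 0 without LF-KO-1 or LF-KO-2. The reason for these moves was not tested.

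Of 25 same-numbered pairs of libraries, 8 had deviations correlated over 0.1, and r ran from -0.183 to 0.196. No differently numbered pairs are given beside them, so these values cannot settle whether replicate numbers pair the mice. With the replicate number as a block the counts were 13, 5, 300 and 0, with 15 of the 29 genes called.

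The common biological coefficient of variation was 28.52%, the LF diet has 8 libraries, and the effect of depth on the calls was not tested. On the linear scale of mean CPM the sign differed from the log2 value for Angptl4 and Acot1, neither of them called.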

Other observations

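Cfd and Fitm1, whose KO effect had the same sign on both diets and passed on HF but not on LF, were singled out after their values were seen. Cfd, the complement protease adipsin that fat cells secrete, stood at 3.87, 11.3, 0.0681 and 0.0666 CPM in LF-C and 0, 0.0612, 0.0747 and 0 in LF-KO, and at 5.30, 6.11, 2.80, 13.03 and 4.39 in HF-C against 0.174, 0, 0, 0.175, 0.123 and 0.0496 in HF-KO. All 5 HF-C livers lay above all 10 KO-labelled livers, and 2 of 4 LF-C livers did, 1 of them LF-C-2, which held fat cell transcripts. Its KO effect was log2 -5.96 ± 0.97 on HF (adjusted p = 0.0011) and -6.50 ± 1.38 on LF (0.227), an interaction of 0.53 ± 1.89. Fitm1, which helps droplets form, had -1.27 ± 0.27 on HF (adjusted p = 0.0105) and -1.68 ± 0.32 on LF (0.124), an interaction of 0.42 ± 0.41.

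The 1 gene called for the KO effect on the LF diet was 1700023H06Rik, with a log2 value of 3.36 ± 0.52 (edgeR adjusted p = 0.0277) and of 1.00 ± 0.32 on HF. It stood at 0.306, 0.0790, 0.136 and 0.0666 CPM in LF-C against 1.66, 1.41, 1.19 and 1.65 in LF-KO, and at 1.47, 0.640, 1.87, 1.09 and 1.42 in HF-C against 1.39, 2.87, 4.47, 2.10, 1.96 and 2.92 in HF-KO, so the LF-C livers were the lowest of all. Its interaction was -2.37 ± 0.62 (adjusted p = 0.109).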
